A study of Mus musculus with 6 samples.

Results

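The genes described here encode the protein import machinery of mitochondria and the voltage-dependent anion channels. They were taken as every entry of usable status in all 6 deposited tables whose symbol starts with Tomm or Timm, or is Vdac1, Vdac2 or Vdac3, which gave 25 of 23415 entries. Of these, 10 belong to the translocase of the outer membrane or act beside it (TOM), 5 to the presequence translocase of the inner membrane (TIM23), 7 are small intermembrane chaperones or the carrier translocase (TIM) and 3 are channels (VDAC). RNA was sequenced from CD4 T cells of spleen and lymph nodes of 7-week-old C57/Bl6j mice of 2 genotypes, wild-type (WT) and NLRP3KO, the latter without the inflammasome sensor NLRP3. Naive cells gave 1 library per genotype, and cells cultured toward the T helper 2 (Th2) fate for 3 or 6 days gave 1 library per genotype and day. All Th2 cultures were stimulated through CD3 and CD28 on coated plates, with IL-4 (10 ng/ml) added and interferon gamma blocked by antibody. The labels do not say how many mice gave the cells of a library. With 1 library per group no difference within a stage had a replicate check, and each such comparison is between 2 libraries. A genotype difference common to the 3 stages was tested in 1 fit over the 6 libraries, given after the day 6 values.

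Nearly all mitochondrial proteins are made in the cytosol and pass the outer membrane through the TOM channel. Proteins with a presequence then cross the inner membrane through TIM23, drawn in by the mitochondrial Hsp70, while small TIM chaperones carry hydrophobic carriers to the TIM22 translocase. VDACs are barrel-shaped channels that let nucleotides and metabolites through the outer membrane, and T cells are known to expand and rewire their mitochondria after activation.

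Vdac1 and Timm44 were the members that lay above WT in the naive NLRP3KO library beyond counting error, and Timm13 was among those below it, so the bases before their starts are shown. Of the 25 genes, 21 had an entry in the RefSeq promoter table of build GRCm38.p6, with 24 starts between them, and 250 bases before each start were searched on both strands for 3 short motifs. Capitals mark CCGGAAG, bound by ETS factors such as GABP, GCGCATGC, the core bound by NRF1, and ACGTG, the core of hypoxia-inducible factor sites. The windows are given 5′ to 3′ on the strand of the gene. Tomm7, Tomm40l, Vdac2 and Vdac3 had no promoter entry, so they were not searched. Among the members with an entry and the lowest ratios, windows with over 30 bases of annotated exon were not printed.
Vdac1, upstream start, chr11:52360601-52360850, plus strand: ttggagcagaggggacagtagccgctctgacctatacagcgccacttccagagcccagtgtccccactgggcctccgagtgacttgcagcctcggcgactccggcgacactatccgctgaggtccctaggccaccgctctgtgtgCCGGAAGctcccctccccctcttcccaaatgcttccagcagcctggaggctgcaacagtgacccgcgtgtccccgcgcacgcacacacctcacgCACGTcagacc
Vdac1, downstream start, chr11:52361347-52361596, plus strand: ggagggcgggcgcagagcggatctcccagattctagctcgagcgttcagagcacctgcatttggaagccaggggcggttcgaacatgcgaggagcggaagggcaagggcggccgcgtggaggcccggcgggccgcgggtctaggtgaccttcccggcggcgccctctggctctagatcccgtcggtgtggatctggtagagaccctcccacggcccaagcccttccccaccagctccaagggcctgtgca
Timm44, chr8:4275906-4276155, minus strand: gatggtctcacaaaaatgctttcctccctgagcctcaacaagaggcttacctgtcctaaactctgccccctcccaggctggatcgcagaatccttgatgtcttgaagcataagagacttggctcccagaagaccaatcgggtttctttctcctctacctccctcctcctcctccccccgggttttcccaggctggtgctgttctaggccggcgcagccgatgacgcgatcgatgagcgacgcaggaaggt
Timm13, chr10:80900970-80901219, minus strand: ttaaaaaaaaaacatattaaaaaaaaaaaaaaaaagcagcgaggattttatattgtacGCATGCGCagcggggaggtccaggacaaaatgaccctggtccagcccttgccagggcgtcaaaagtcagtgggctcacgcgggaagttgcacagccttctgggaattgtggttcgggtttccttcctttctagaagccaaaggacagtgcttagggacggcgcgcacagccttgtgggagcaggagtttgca
The ETS motif was present before 9 of the 24 member starts (37.5%), against 6.91% of all 32851 windows in the table and 15.2% of the 9108 windows of genes whose FPKM reached 1 in either naive library. Those 9 windows belonged to 8 genes, Vdac1, Timm10, Timm23, Timm8a2, Timm8b, Tomm22, Tomm34 and Tomm70a, which differed widely in their genotype ratios below. The NRF1 motif was present before 1 member start, that of Timm13 (4.17%, against 2.26% of all windows and 4.83% of those of expressed genes). The hypoxia motif was present before 5 of them (20.8%, against 16.6% and 22.6%), and Vdac1 was 1 of these genes. A match describes letters in the window and does not show that a factor binds there.

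The libraries differed in kind and depth. Per the labels mRNA was purified for the 2 naive libraries, whereas ribosomal RNA was depleted for the 4 Th2 libraries, so culture and library type cannot be told apart. Estimated fragments on genes numbered 1633879 in naive WT and 1375829 in naive NLRP3KO, but 29980 and 25418 at day 3 and 31243 and 5620 at day 6, in WT and NLRP3KO respectively. Nlrp3 itself had an FPKM of 0.0569 in naive WT, under the 0.171 that 3 fragments would give, while the other 5 libraries list it at 0, so the knockout could not be checked. T cell markers were above 0 in every library, 6 of 6 genes in both naive libraries and in both WT Th2 libraries, 5 of 6 in NLRP3KO day 3 and 4 of 6 in NLRP3KO day 6. In the Th2 libraries CD8, myeloid, NK and erythroid markers were all listed at 0, and of 4 B cell markers only Cd79b was above 0, in WT day 3.

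The share of each library taken by the members lay between 11.9 and 15.9 fragments per 10000. Per 10000 fragments on genes there were 15.1 member fragments in naive WT (95% Poisson counting interval 14.5 to 15.7) and 12.9 in naive NLRP3KO (12.3 to 13.5). The values were 14.4 (10.5 to 19.4) in WT day 3 and 15.9 (11.4 to 21.6) in NLRP3KO day 3. At day 6 they were 15.5 (11.4 to 20.5) in WT and 11.9 (4.66 to 24.9) in NLRP3KO. The 2 naive intervals lay apart and the 4 Th2 intervals overlapped each other. These shares rest on 2468.2 and 1777.4 member fragments in the naive libraries but 43.3 and 40.4 at day 3 and 48.4 and 6.7 at day 6, in WT and NLRP3KO. PCR copies were not marked by molecular identifiers, so all intervals here are of counting error alone. In such bulk samples, fewer cells of a type and less RNA per cell cannot be told apart.

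**Figure D1:**
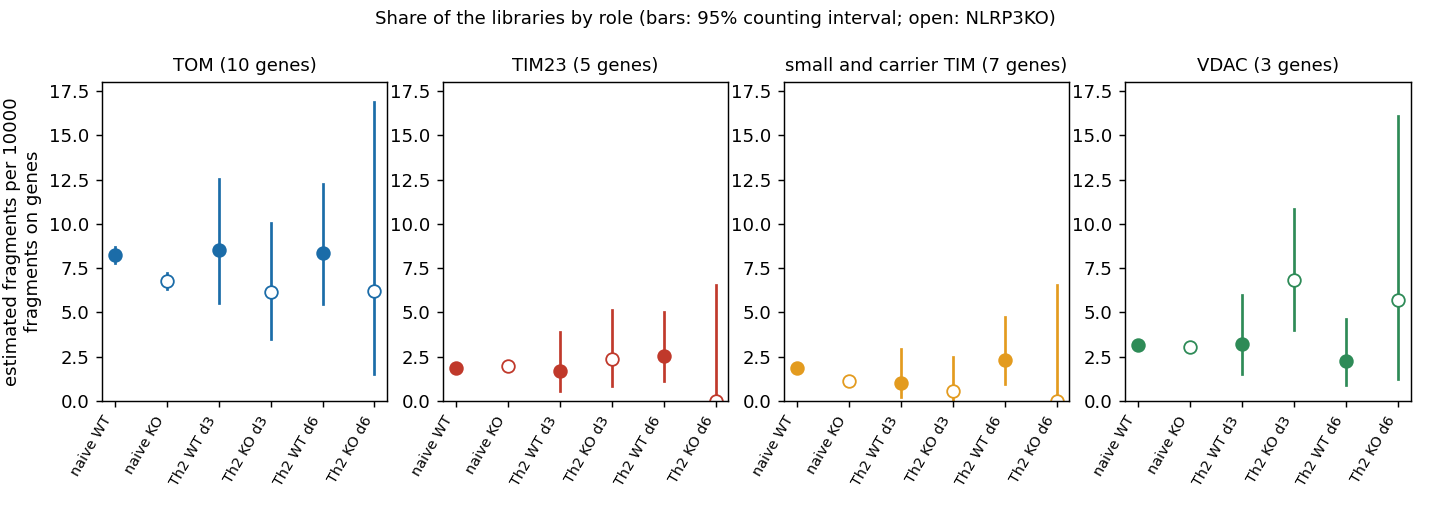
Estimated fragments per 10000 fragments on genes (linear axis) for the 4 roles in the 6 libraries, filled points WT and open points NLRP3KO, bars the 95% Poisson counting interval. TOM genes take the most in each naive library, and the VDAC point of NLRP3KO day 3, at 6.82, stands above that of WT day 3, at 3.22, with overlapping bars.

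In naive cells 24 of the 25 genes were above 0 in WT and 23 in NLRP3KO, and those 23 rested on at least 5 fragments in both libraries. The highest mean FPKM belonged to Tomm22, the receptor at the centre of the TOM complex, at 43.8 in WT and 49.9 in NLRP3KO. Tomm6, Tomm7, Vdac2, Timm8b, Vdac1, Tomm34, Tomm5, Timm13 and Timm44 followed in that order of their mean FPKM. Tomm20l, a copy of the receptor gene Tomm20, was listed at 0 in all 6 libraries, and Timm8a2, a copy of Timm8a1, was above 0 in naive WT alone, at 0.296.

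Ratios between libraries were taken on FPKM scaled by the median over 1059 genes, which puts the median log2 difference of all 9985 genes compared at 0.01. Of the 23 members compared, 17 were lower and 6 higher in naive NLRP3KO, with a median log2 difference of -0.41. None was at least 2-fold higher and 2 were at least 2-fold lower (Tomm7 and Timm8a1), against 0.21% and 2.32% of all genes. By a second rule, a gene counts as apart when the exact 95% counting interval of its ratio leaves out 1. By it 2 members were higher and 10 lower, against 14.0% and 15.2% of the 9896 genes with a usable length, and 11 were neither. This split depends on the scaling: with FPKM as deposited, which lifts the median of all genes to 0.37, 6 members were higher and 4 lower, against 42.5% and 5.02% of all genes. With equal sums over genes they were 5 and 4, against 34.8% and 6.71%. The 4 that were lower on all 3 scales were Tomm7, Timm8a1, Tomm6 and Timm13, and Vdac1 and Timm44 were higher on all 3.

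**Figure D2:**
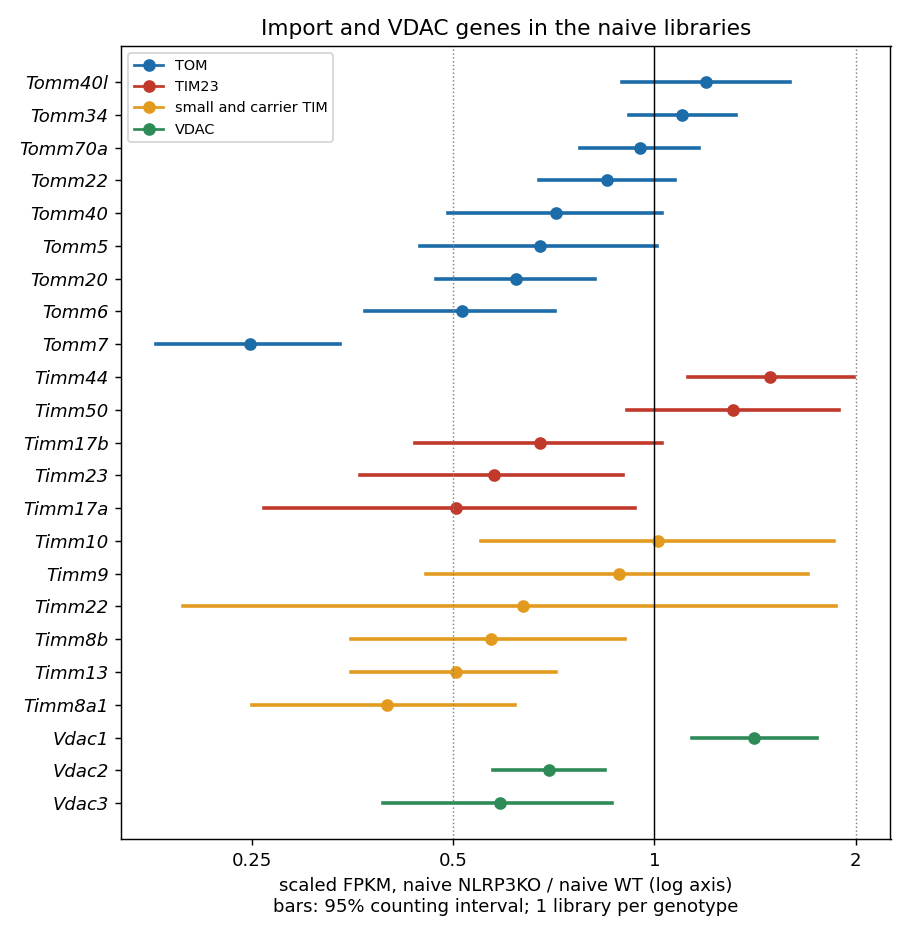
Ratio of scaled FPKM, naive NLRP3KO over naive WT, on a log axis for the 23 members compared, grouped and coloured by role, with the exact 95% counting interval as bars and dotted lines at 2-fold. Tomm7 lies furthest left at 0.249, and Vdac1 at 1.41 and Timm44 at 1.49 have bars wholly to the right of 1.

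Tomm7 and Tomm6, small subunits that stabilise the channel, had the lowest ratios among TOM genes. Tomm7 (chromosome 5, 23344762 to 23349963 on mm9) had a deposited FPKM of 53.0 in naive WT (deposited bounds 39.6 to 57.6) and 17.6 in naive NLRP3KO (11.6 to 22.6). The bounds did not overlap, and the scaled ratio was 0.249 (counting interval 0.180 to 0.338) on 51 and 226 fragments in NLRP3KO and WT. Tomm6 was 46.7 in WT and 32.2 in NLRP3KO, a ratio of 0.515 (0.369 to 0.711), which was not below that of other short transcripts beyond counting error, as described with transcript length. Tomm5, the other small subunit, was 30.4 and 27.5, a ratio of 0.675 (0.446 to 1.01) whose interval included 1. Tomm6 shares exon bases with antisense and neighbouring gene models of the GRCm38 annotation. Of the 25 genes 11 share exon bases with another gene there. They are Tomm6, Tomm20l, Tomm40, Tomm40l, Tomm70a, Timm8b, Timm9, Timm13, Timm17b, Timm23 and Vdac2. With no statement on strand, reads from the shared bases cannot be assigned. Tomm7, Vdac1, Timm44 and Timm8a1 share no exon bases. Timm8a1 has the near copy Timm8a2 and Vdac3 a pseudogene, which could take some of their reads. Pseudogenes were sought only by names built on a member's symbol. Copies under other names, also of Tomm7, Vdac1 and Timm44, were not looked for.

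The receptors and the channel had ratios from 0.622 to 0.951. Tomm20, a presequence receptor, was 6.83 in WT and 5.68 in NLRP3KO, a ratio of 0.622 (0.471 to 0.817). Tomm40, the channel itself, was 11.9 and 11.4 (0.713, 0.491 to 1.03), and Tomm22 had a ratio of 0.850 (0.671 to 1.07). Tomm70a, the receptor for carriers, was 12.4 and 15.9 in deposited FPKM, a scaled ratio of 0.951 (0.773 to 1.17). The intervals of Tomm40, Tomm22 and Tomm70a included 1. Tomm34, a cytosolic cochaperone of import, had a ratio of 1.10 (0.915 to 1.33), and Tomm40l, a copy of the channel gene, 1.20 (0.894 to 1.60). Together the 10 TOM genes gave a pooled ratio of fragments, per fragments on genes, of 0.820 (0.754 to 0.892). Within the TOM fragments, a share that needs no scaling between libraries, Tomm7 made up 16.8% in WT (exact binomial interval 14.8 to 18.9) and 5.48% in NLRP3KO (4.11 to 7.14).

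The TIM23 genes did not share a direction. Timm44 (chromosome 8, 4259731 to 4275905 on mm9), which tethers the mitochondrial Hsp70 to the channel, had a deposited FPKM of 11.8 in naive WT (bounds 8.84 to 14.7) and 23.7 in naive NLRP3KO (18.2 to 27.8). The bounds did not overlap, and the scaled ratio was 1.49 (1.12 to 1.99). Timm50, the receptor of the complex, was 12.6 and 22.2, a ratio of 1.31 (0.911 to 1.89) whose interval included 1. The channel-forming Timm23 was 13.4 and 10.4 (0.576, 0.362 to 0.899), and its partner Timm17a was 10.3 and 6.98 (0.504, 0.261 to 0.936). Against the median of their length band they stood at -0.58 and -0.77 on the log2 scale. Relative to that band neither was lower by the counting interval. Timm17b, the second form of that partner, had a ratio of 0.674 (0.438 to 1.03). The 5 genes summed to a pooled ratio of 1.07 (0.905 to 1.27), since Timm44 took 28.8% of TIM23 fragments in WT (23.7 to 34.2) and 43.3% in NLRP3KO (37.3 to 49.4).

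Of the 7 small and carrier TIM genes 6 were compared, as Timm8a2 did not reach an FPKM of 1, and by the counting interval 3 were below WT and 0 above, against 15.2% and 14.0% of all genes. Timm8a1 (chromosome X, 131071797 to 131076168), an intermembrane chaperone, was 17.2 in WT and 9.19 in NLRP3KO, a ratio of 0.398 (0.250 to 0.618). Its partner Timm13 was 22.3 and 15.1 (0.504, 0.352 to 0.714), and Timm8b was 36.5 and 27.8 (0.570, 0.352 to 0.905). Relative to its length band Timm8b was not lower by the counting interval. Timm9 and Timm10, which form a chaperone for carriers, had ratios of 0.886 (0.456 to 1.70) and 1.01 (0.551 to 1.86), and Timm22, the carrier translocase, 0.637 (0.197 to 1.87) on 6.2 and 10.8 fragments. The role as a whole had a pooled ratio of 0.606 (0.496 to 0.738), the lowest of the 4 roles. This value was not adjusted for transcript length, and short transcripts had lower ratios over all genes. Against the medians of their length bands, Timm8a1 stood at -1.11, Timm13 at -0.77 and Timm8b at -0.07 on the log2 scale. Timm9 stood at 0.57 and Timm10 at 0.76.

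The 3 VDAC genes stood in a different order in the 2 naive libraries, Vdac2 first in WT and Vdac1 first in NLRP3KO. Vdac1 (chromosome 11, 52174617 to 52202898 on mm9) had a deposited FPKM of 21.5 in WT (bounds 16.8 to 24.3) and 40.5 in NLRP3KO (32.2 to 47.1), and the bounds did not overlap. Vdac2 was 34.4 and 32.1, and Vdac3 was 14.5 and 11.4. In NLRP3KO the bounds of Vdac2 (25.5 to 37.5) overlapped those of Vdac1. The scaled ratios were 1.41 (1.14 to 1.75) for Vdac1, 0.696 (0.573 to 0.843) for Vdac2 and 0.587 (0.393 to 0.866) for Vdac3. Against the medians of their own length bands Vdac2 stood at -0.59 and Vdac3 at -0.55 on the log2 scale. By the counting interval relative to the band, Vdac2 was lower and Vdac3 was not. Vdac1 made up 30.3% of VDAC fragments in WT (26.4 to 34.5) and 47.8% in NLRP3KO (42.9 to 52.7), while the 3 genes summed to a pooled ratio of 0.967 (0.848 to 1.10).

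Transcript length moved with the naive ratios. Over all genes with at least 20 fragments in the pair, the median log2 ratio was -0.74 for transcripts of 300 to 800 bases, -0.21 from 800 to 1500, 0.07 from 1500 to 3000 and 0.06 above. The members' medians in the same bands were -0.57 (5 genes), -0.89 (8 genes), -0.17 (6 genes) and -0.07 (3 genes). Against the median of its own band, Tomm7 stood at -1.79 and Timm8a1 at -1.11 on the log2 scale, Tomm6 at -0.21 and Timm8b at -0.07. Timm10 stood highest, at 0.76, followed by Timm50 at 0.60, Timm9 at 0.57, Timm44 at 0.51 and Vdac1 at 0.43. With ratios taken relative to the band, 3 of 22 members were higher and 7 lower by the counting interval, against 12.9% and 15.0% of 8751 genes. The 3 were Vdac1, Timm44 and Timm50. Of the 10 members lower without this step, 5 were lower with it as well (Tomm7, Timm8a1, Timm13, Tomm20 and Vdac2) and 5 were not (Timm17a, Timm23, Timm8b, Tomm6 and Vdac3), while Tomm40 and Timm17b were lower with it alone.

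**Figure D3:**
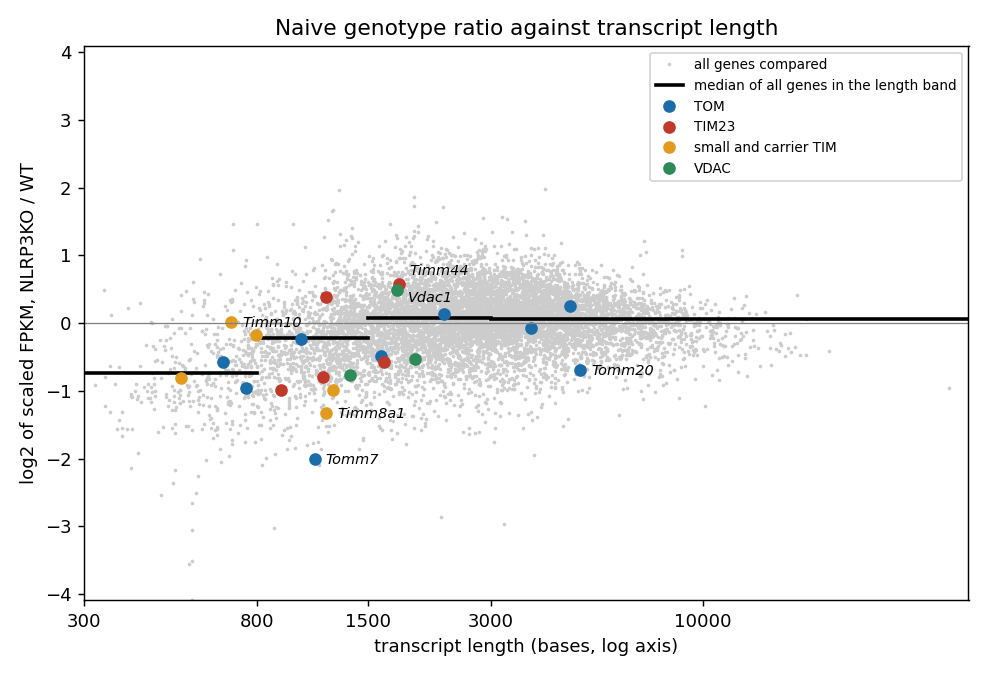
Log2 ratio of scaled FPKM, naive NLRP3KO over WT, against transcript length in bases on a log axis, grey for all genes with at least 20 fragments in the pair and colours for the members, black lines the median of each length band. The medians run from -0.74 in the shortest band to 0.06 in the longest, and Tomm7 and Timm8a1 lie below their band while Vdac1 and Timm44 lie above theirs.

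Markers of other cells also differed between the naive libraries. The summed FPKM of 4 B cell markers was 74.2 in WT and 33.0 in NLRP3KO, with 4 of 4 above 0 in both and a pooled ratio of 0.366 (0.304 to 0.439). The 6 globin entries, which mark erythroid cells, summed to 1216 and 591. Both Hba-a1 entries were higher in NLRP3KO (ratios 2.11 and 2.76) and both overlapping Hba-a2 entries lower (0.0586 and 0.0876), and reads of these near-identical copies cannot be assigned. Per fragments on genes, T cell markers had a pooled ratio of 1.14 (1.10 to 1.17), myeloid markers 1.05 (0.771 to 1.44) and CD8 markers 0.842 (0.614 to 1.15). The 6 T cell markers did not share a direction. By the counting interval 4 were higher in NLRP3KO (Cd3e, Cd28, Cd4 and Lck) and 2 lower. The lower ones were Cd3d, at a scaled ratio of 0.683, and Cd3g, at 0.711. The 2 NK markers reached a summed FPKM of 0.894 in WT and 0.644 in NLRP3KO. The part of transcript length and of these other cells in the members' ratios was not tested.

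A list of import partners was taken by function. Of its 23 genes for chaperones, peptidases, sorting and assembly proteins, 22 were compared in the naive pair, 0 were higher and 6 lower by the counting interval, against 14.0% and 15.2% of all genes, and 0 were at least 2-fold apart. The 6 were Dnajc15, Mtx2, Immp1l, Mipep, Grpel1 and Hspe1. Dnajc15, a cochaperone of the import motor, was 40.1 in WT and 25.4 in NLRP3KO, and Mtx2, a sorting subunit of the outer membrane, was 15.5 and 9.24. Their median log2 difference was -0.22 and their pooled ratio 0.941 (0.878 to 1.01). A list of 16 genes, mostly for enzymes and respiratory subunits but also Tfam, Phb and Phb2, was taken as a measure of mitochondrial content. It had 6 genes higher and 5 lower, against the same shares. Its median log2 difference was 0.04 on scaled FPKM, and its pooled ratio, per fragments on genes, was 1.10 (1.06 to 1.15). Those 2 scales differ in the naive pair: the members pooled to 0.855 per fragments on genes and to 0.790 with median-ratio scaling. Among 13 partners of VDAC, 12 were compared, 3 were higher and 3 lower, again beside 14.0% and 15.2%, with a pooled ratio of 1.01 (0.961 to 1.07). The higher ones were Hk1, Bak1 and Itpr3. Hk1, the hexokinase that docks on VDAC, was 9.45 in WT and 19.5 in NLRP3KO, a ratio of 1.54 (1.26 to 1.89).

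After 3 days under Th2 conditions the members were seen through few fragments. They were above 0 for 13 of 25 genes in WT and 16 in NLRP3KO, 11 of them in both libraries. Only 4 members in WT and 1 in NLRP3KO reached 5 fragments, so single genes other than Vdac1 give little. Pooled, the ratio of NLRP3KO to WT was 1.10 (0.699 to 1.73). Vdac1 alone set its direction: without it the pooled ratio was 0.763, and without the 3 VDAC genes it was 0.809. By role the pooled ratio was 0.718 (0.357 to 1.40) for TOM, 1.41 (0.360 to 5.86) for TIM23, 0.570 (0.028 to 5.79) for small and carrier TIM and 2.12 (0.912 to 5.23) for VDAC, and every one of these intervals included 1. Without Vdac1 the VDAC ratio was 0.549 (0.102 to 2.29).

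Vdac1 had a deposited FPKM of 2.55 in WT day 3 (bounds 0 to 5.62) and 18.2 in NLRP3KO day 3 (9.53 to 26.2), on 2.5 and 14 estimated fragments. The bounds did not overlap, and the scaled ratio was 6.28 (1.61 to 41.9). Vdac2 ran the other way, at 6.55 in WT and 2.77 in NLRP3KO, on 7.2 and 2.4 fragments, a ratio of 0.374 (0.048 to 1.79) whose interval included 1. Vdac3 was listed at 0 in WT and was 1.65 in NLRP3KO, on about 0.9 fragments. Vdac1 made up 25.9% of the VDAC fragments in WT (4.57 to 62.1) and 80.8% in NLRP3KO (55.1 to 95.4), and these intervals overlapped. The members with at least 5 fragments in a day 3 library were Vdac1, Vdac2, Tomm6, Tomm70a and Tomm40. Tomm6 was 20.4 in WT and 5.21 in NLRP3KO, Tomm70a 3.19 and 1.74, and Tomm40 5.82 and 2.96, all with overlapping bounds.

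The day 3 pair held 18 members with an FPKM of 1 or more, 8 of them higher by 2-fold or more and 6 lower, against 25.4% and 27.2% of 5749 genes. A difference of that size is common here because 1 fragment against 0 can give it. Of these 18 members 7 were listed at 0 in 1 of the 2 libraries, against 34.1% of the 5749 genes. By the counting interval 1 member was higher, Vdac1, and 0 were lower, against 2.5% and 2.09% of 5687 genes.

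**Figure D4:**
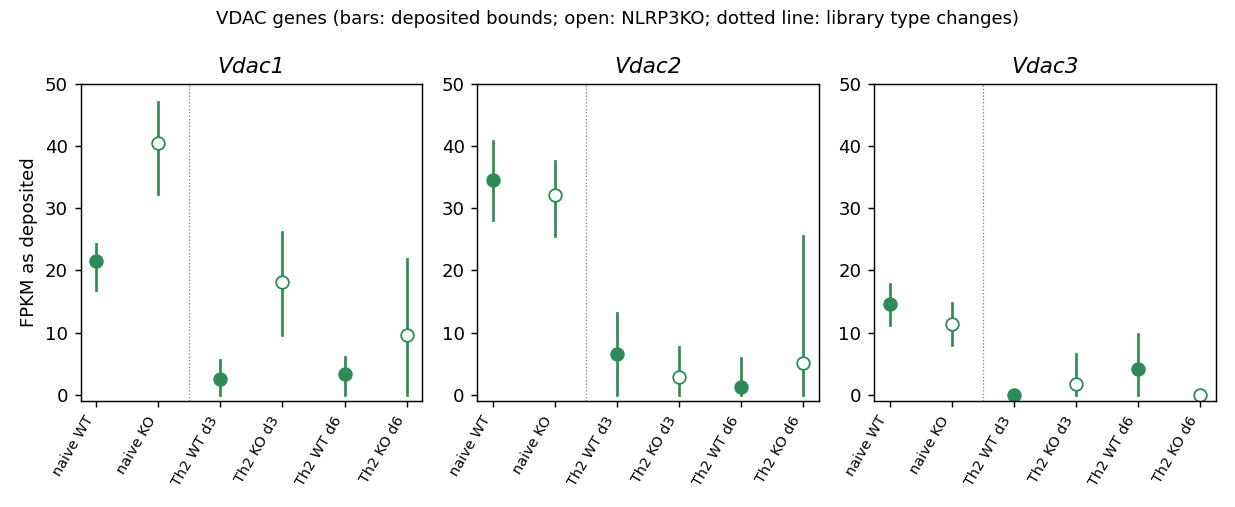
Deposited FPKM (linear axis) of Vdac1, Vdac2 and Vdac3 in the 6 libraries, filled points WT and open points NLRP3KO, bars the deposited bounds, the dotted line separating mRNA from ribosome-depleted libraries. Vdac1 is 40.5 against 21.5 in the naive pair and 18.2 against 2.55 at day 3, with bars apart in both, while at day 6 the bars overlap.

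At day 6 the NLRP3KO library held 5620 fragments on genes, and 5 members were above 0 in it against 20 in WT. Those 5 were Vdac1, Vdac2, Tomm6, Tomm20 and Tomm70a, which were also the members above 0 in all 6 libraries. Vdac1 was 3.28 in WT (bounds 0 to 6.04) and 9.52 in NLRP3KO (0 to 21.8), on 3 and 2 fragments, a ratio of 2.58 (0.215 to 22.5). Tomm70a was 3.91 and 2.12 and Tomm6 4.38 and 19.1, the latter on about 1.5 fragments in each library. Tomm22, at 10.1 in WT on 5 fragments, was listed at 0 in NLRP3KO, where 3 fragments would have given an FPKM of 26.4.

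The day 6 pair also held 18 such members, 4 higher by 2-fold or more and 13 lower, against 20.9% and 53.8% of 5336 genes. Of the 25 genes 15 were above 0 in WT alone. Among the 18 members compared 13 were listed at 0 in 1 of the 2 libraries, against 58.8% of the 5336 genes. By the counting interval 0 were higher and 0 lower, against 0.816% and 1.01% of 5272 genes. The pooled ratio was 0.768 (0.286 to 1.73). It was 2.52 (0.448 to 10.8) for VDAC, 1.64 (0.0547 to 14.9) for VDAC without Vdac1, and 0.743 (0.167 to 2.27) for TOM. The 12 genes of the other roles were listed at 0 in NLRP3KO, against 8 fragments for TIM23 and 7.2 for small and carrier TIM in WT. Vdac1 was thus the higher in NLRP3KO at each of the 3 stages, with intervals that left out 1 in naive cells and at day 3 and not at day 6.

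**Figure D5:**
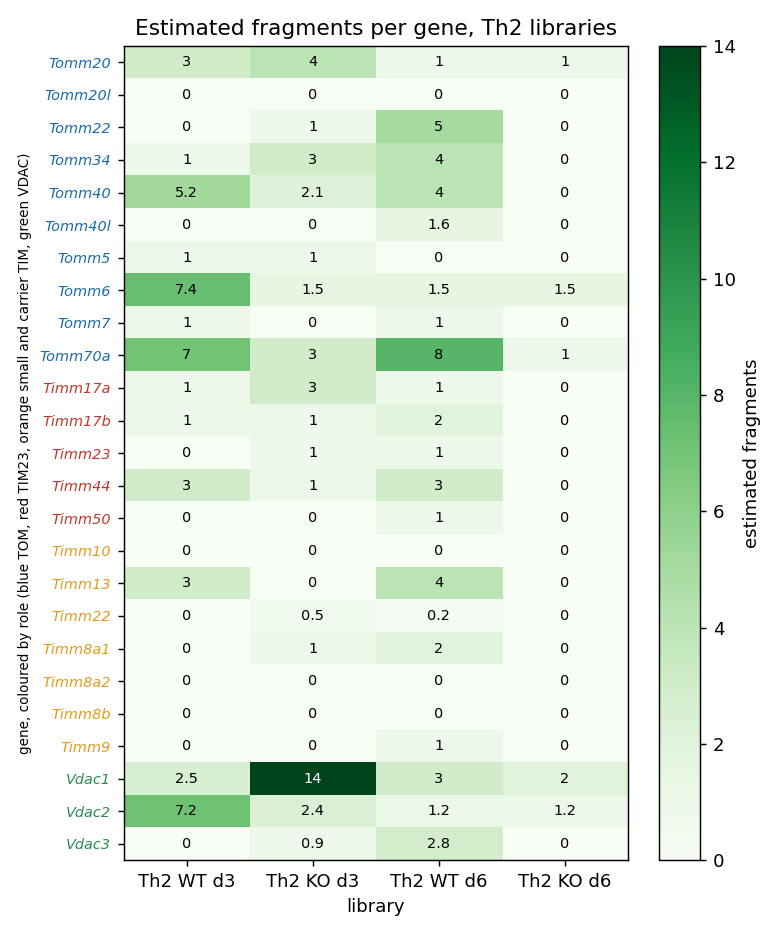
Estimated fragments per member (number in each cell and green scale) in the 4 Th2 libraries, gene names coloured by role. The 14 fragments of Vdac1 in NLRP3KO day 3 are the highest value, and most cells of NLRP3KO day 6 are 0.

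In the fit over all 6 libraries, log2 FPKM was modelled on stage and genotype with limma, so that a genotype difference that changes with stage counts as residual. NLRP3KO was the shallower library at each stage, so differences that come from depth can enter the genotype term and cannot be told apart from it. Of 6838 genes, 22 of them members, 0 had an adjusted p under 0.05 (0% of all genes), and the smallest adjusted p was 0.766. At an unadjusted p under 0.05 there were 216 genes (3.16%), 2 of them members, Tomm7 and Timm13. The difference, NLRP3KO minus WT on the log2 scale, was -2.02 for Tomm7 (95% interval -3.34 to -0.71, limma adjusted p = 0.766) and -2.63 for Timm13 (-4.52 to -0.73, adjusted p = 0.766). Both were lower in NLRP3KO in 3 of 3 pairs, though they were listed at 0 in both NLRP3KO Th2 libraries. In WT they rested on few fragments there, Tomm7 on 1 at each day and Timm13 on 3 at day 3 and 4 at day 6. The counting intervals of both genes included 1 at both days, so the Th2 pairs say little on direction. Vdac1 had a difference of 1.37 (-0.13 to 2.87, limma adjusted p = 0.766), higher in 3 of 3 pairs. The median difference was -0.53 over the members and -0.29 over all genes tested, and without the day 6 pair, where NLRP3KO is shallow, it was -0.04 over both.

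Hspa9 and Hspd1 were the import partners lower in NLRP3KO day 3 by the counting interval, among 13 compared, and 0 were higher, against 2.09% and 2.5% of all genes. Hspa9, the mitochondrial Hsp70 that Timm44 tethers and a gene counted in both partner lists, had a deposited FPKM of 13.7 in WT day 3 and 2.18 in NLRP3KO day 3, on 24 and 3 fragments, a ratio of 0.140 (0.027 to 0.461). At day 6 it was 15.9 and 2.66, on 26 fragments and 1 fragment (ratio 0.148, 0.004 to 0.903), whereas in the naive pair it was 23.0 and 29.6 (0.962, 0.812 to 1.14). Hspd1, the chaperonin that folds imported proteins, was 4.54 in WT day 3 on 6 fragments and listed at 0 in NLRP3KO, with an interval that reached up to 0.952. At day 6 Hspd1 was 7.30 in WT on 9 fragments and listed at 0 in NLRP3KO, with an interval that included 1. At day 6 Hspa9 was the 1 import partner lower among 12, against 1.01%. The import partners pooled to 0.507 (0.295 to 0.845) at day 3 and 0.615 (0.219 to 1.42) at day 6. Hspa9 carried these values: without it they were 0.810 (0.431 to 1.49) and 0.972 (0.298 to 2.52), and the median log2 difference of the list at day 3 was 0.11.

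The list of mitochondrial content pooled to 0.743 (0.559 to 0.982) at day 3 and to 0.768 (0.448 to 1.24) at day 6. By the counting interval 0 of 14 genes were apart at day 3, against 2.5% higher and 2.09% lower of all genes. The VDAC partners pooled to 0.786 (0.581 to 1.06) at day 3. Of 12 compared, Hk1 was higher and Hspa9 lower by the counting interval, against 2.5% and 2.09% of all genes. At day 6 they pooled to 1.01 (0.610 to 1.59), with 0 of 12 higher and 1 lower, Hspa9, against 0.816% and 1.01%. Hk1 was 2.09 in WT day 3 and 7.87 in NLRP3KO day 3, a ratio of 3.32 (1.14 to 11.8). At day 6 Hk1 was 3.98 and 7.80, a ratio of 1.74 (0.387 to 6.30) whose interval included 1. Hk1 and Vdac1 were thus each higher in NLRP3KO beyond counting error in the naive pair and at day 3. The inducible hexokinase Hk2 was listed at 0 in naive WT and was 0.0603 in naive NLRP3KO, and stood at 4.63 and 3.53 at day 3 and 6.29 and 5.75 at day 6.

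Between days 3 and 6 the pooled members differed by less than counting error in either genotype. The ratio of day 6 to day 3 was 1.07 (0.698 to 1.66) in WT and 0.749 (0.276 to 1.71) in NLRP3KO. Against the naive library of the same genotype, the pooled share at day 3 was 0.955 (0.690 to 1.29) in WT and 1.23 (0.877 to 1.68) in NLRP3KO. The VDAC genes gave 1.02 (0.480 to 1.92) in WT and 2.24 (1.30 to 3.61) in NLRP3KO in that comparison, where library type and depth differ as well as culture. In NLRP3KO Vdac1 carried this value, with a ratio of 3.26 (1.75 to 5.59), and without it the pair of Vdac2 and Vdac3 gave 0.824 (0.188 to 2.32). The 4 members listed at 0 in all 4 Th2 libraries were Timm10, Timm8a2, Timm8b and Tomm20l, of which Timm10 and Timm8b had naive FPKM between 10.7 and 36.5.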

How the data were processed

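Per the file headers, each library has 1 deposited table that gives, per gene model, the authors' FPKM with confidence bounds and a status. TopHat, Cufflinks and mm9 are named in the submitters' processing notes, and what else was used upstream is not given in the sources used here. The members, the partner and marker lists and the rules were chosen with earlier results of these data known.

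FPKM were scaled by the median ratio over the 1059 genes that reached an FPKM of 1 in each of the 6 libraries. Before taking log2 differences 1 was added as a pseudocount, so differences of low genes come out too small. Genes that reached an FPKM of 1 in either library of a pair were compared, and 2-fold refers to this scale. Ratios of single genes are of scaled FPKM without a pseudocount. Pooled ratios are of estimated fragments per fragments on genes, another scale than that of the single genes.

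The tables hold no counts. The bounds step in whole fragments, so library totals (for WT 4571257 naive, 604216 day 3, 562337 day 6, and for NLRP3KO 3112345, 475361, 129744) and, for 13 members, transcript lengths were read from FPKM and bounds. The other 12 lengths, among them those of Vdac2, Vdac3, Timm13 and Tomm6, came from GENCODE vM21, another build. Where both lengths existed they could be close, as for Tomm7 (1109 bases from the bounds, 1125 in GENCODE). They could also be far apart, as for Tomm70a (3778 and 5964) and Timm17a (917 and 7280). The fragments, intervals and length bands of the 12 carry this uncertainty. Fragments per gene are thus estimates and need not be whole. Ratio intervals are exact conditional binomial (Clopper-Pearson) at 95%, evaluated at these estimates, and compare libraries. A genotype effect over the stages was fitted with limma on log2(scaled FPKM + 1), with stage as a term, for genes with a mean scaled FPKM of at least 1, leaving 2 residual degrees of freedom, and adjusted by Benjamini-Hochberg over all genes. The decoding, the interval rule, length bands, other scalings of that rule, this fit and the ratios without Vdac1 or Hspa9 were added after seeing the data. The procedures were tested on simulated data.

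Named genes were, in naive cells, the 10 members of highest mean FPKM, the 5 highest and 5 lowest log2 differences and members at least 2-fold apart. In Th2 libraries they were the VDACs and members with deposited bounds apart or at least 5 fragments. Up to 4 import partners per comparison were named where apart and at least 2-fold. Further members and partners were named after their values were seen. Python 3.11.15, pandas 2.3.3, numpy 2.4.6, scipy 1.17.1 matplotlib 3.10.9, R 4.3.3 and limma 3.58.1 were used.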

Additional observations from a re-analysis of the deposited data

How the results depend on the processing

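With 1 library per group, no replicate could be left out. Pairing by stage was possible only across the 3 stages: that fit called 0 of 6838 genes at a limma adjusted p under 0.05 with and without a mean-variance trend and without day 6, with 216, 227 and 37 genes at an unadjusted p under 0.05, 2 of them members each time (Tomm7 and Timm13, but Tomm7 and Tomm6 without day 6). The naive pooled ratio was 0.710 from summed scaled FPKM and 0.790 with fragments scaled by the median ratio. The count at least 2-fold lower in naive cells fell to 1 with FPKM as deposited, with equal sums over genes and with a pseudocount of 5. At day 3 the counts higher and lower were 2 and 2 with a pseudocount of 5, 2 and 3 with a minimum FPKM of 5, and 3 higher among genes above 0 in both libraries. At day 6 they were 1 and 7 with a pseudocount of 5, and the count lower was 2 with a minimum FPKM of 5 and 0 among genes above 0 in both. In the last 3 kinds of setting the differences built on 1 or 2 fragments are shrunk or left out. By the counting interval, naive members numbered 6 higher and 4 lower as deposited (42.5% and 5.02% of all genes), 5 and 4 with equal sums over genes (34.8% and 6.71%), and 3 and 7 within length bands. No called direction reversed under the settings run, but the day 3 pooled ratio, whose interval included 1, fell below 1 without Vdac1 (0.763), without the VDACs (0.809) and from summed scaled FPKM (0.947). Among Th2 genes, a 2 kb transcript needs an FPKM of 2.68 to 12.5 to reach 3 fragments, so single members under that level were not resolved.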
